A study of Homo sapiens with 12 samples.

Results

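Adipocytes release hormone-like proteins, the adipokines, and import fatty acids from lipoproteins, and 10 genes that serve these tasks are described here: the adipokine genes ADIPOQ, LEP, RARRES2, NAMPT, RBP4, ANGPTL4 and APLN, the chemerin receptor CMKLR1, and the fatty acid binding and uptake genes FABP4 and CD36. They were chosen by symbol, and each of the 10 had its row among the 28901 named genes of the deposited count table. The cells were ASC52telo, a human adipose stromal cell line immortalized with hTERT and obtained from a single donor, so the libraries carry no variation between donors. Confluent cells carried a lentiviral scramble shRNA or an shRNA against the lincRNA linc-ADAIN (KD), each a single hairpin in cells sorted for the ZsGreen reporter, so an effect of linc-ADAIN loss and an effect of that hairpin alone cannot be told apart. All groups were differentiated with insulin, dexamethasone, isobutylmethylxanthine and rosiglitazone for 7 days, were kept in maintenance medium until day 14, and were left without LPS or were given bacterial lipopolysaccharide (LPS) at 100 ng/mL for 4 h. The 4 groups (scramble, scramble with LPS, KD and KD with LPS) held 3 libraries each, 12 in all. The level of the targeted lincRNA was not analysed here.

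Adiponectin (ADIPOQ) and leptin (LEP) are the classical adipocyte hormones, the former supporting insulin sensitivity and the latter reporting fat stores to the brain. Chemerin, the product of RARRES2, is secreted as a precursor and acts through the receptor CMKLR1 on immune cells and adipocytes. ANGPTL4 is a secreted inhibitor of lipoprotein lipase, the enzyme that frees fatty acids from lipoproteins, CD36 takes up fatty acids at the plasma membrane, and FABP4 carries them inside the adipocyte and is also secreted. Several of these genes, among them ADIPOQ, FABP4, CD36 and ANGPTL4, are targets of PPARγ, the main transcription factor of fat cell differentiation and the receptor for rosiglitazone.

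The set of RefSeq promoters used here (GRCh38.p14) held those of 9 of the 10 genes and lacked FABP4, which says nothing about RefSeq itself. The stretches of 250 bases before the RefSeq start are printed for 4 genes with different behaviour in these libraries: ADIPOQ (chr3:186842460-186842709, plus strand) was lower in KD, ANGPTL4 (chr19:8363905-8364154, plus strand) was lower in KD and again lower with LPS, RARRES2 (chr7:150341630-150341879, minus strand) was detected almost only in KD, and NAMPT (chr7:106284984-106285233, minus strand) was higher with LPS. They are written from 5′ to 3′ on the strand of the gene, and capitals mark a match to a CCAAT box (CCAAT) in ADIPOQ, at position -88, and to a TATA box (TATAAA) in ANGPTL4, at position -29. No capitals in RARRES2 and NAMPT mean only that none of the letters searched stand in these windows.
ADIPOQ: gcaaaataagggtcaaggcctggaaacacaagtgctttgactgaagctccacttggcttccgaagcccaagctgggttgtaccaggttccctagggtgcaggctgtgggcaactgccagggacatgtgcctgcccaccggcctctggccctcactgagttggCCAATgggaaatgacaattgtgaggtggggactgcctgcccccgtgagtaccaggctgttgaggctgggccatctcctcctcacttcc
ANGPTL4: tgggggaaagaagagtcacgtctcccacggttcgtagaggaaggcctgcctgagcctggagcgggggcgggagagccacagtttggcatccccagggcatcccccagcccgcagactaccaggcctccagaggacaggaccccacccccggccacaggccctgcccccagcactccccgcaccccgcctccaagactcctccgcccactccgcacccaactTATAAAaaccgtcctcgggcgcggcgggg
RARRES2: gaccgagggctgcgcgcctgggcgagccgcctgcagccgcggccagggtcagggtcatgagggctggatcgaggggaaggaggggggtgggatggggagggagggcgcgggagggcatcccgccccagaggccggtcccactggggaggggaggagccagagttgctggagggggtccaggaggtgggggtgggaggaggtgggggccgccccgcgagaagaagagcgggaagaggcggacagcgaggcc
NAMPT: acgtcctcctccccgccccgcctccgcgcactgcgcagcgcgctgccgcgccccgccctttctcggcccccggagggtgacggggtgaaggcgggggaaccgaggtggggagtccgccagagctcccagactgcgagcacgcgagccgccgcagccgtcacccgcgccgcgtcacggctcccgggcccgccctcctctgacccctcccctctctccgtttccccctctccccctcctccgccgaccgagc

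The windows differed in base composition. GC content was 58.8% before ADIPOQ, 68.8% before ANGPTL4, 74.8% before RARRES2 and 77.2% before NAMPT, against a median of 58.0% over the 35116 promoters of the table. Over windows of 300 bases, from 250 before to 50 after the start and on both strands, the TATA box letters stood in 11.53% of all promoters and in at least 1 promoter of 3 of the 9 genes (ANGPTL4, RBP4 and CD36), and CCAAT in 34.61% and in 3 genes (ADIPOQ, CD36 and RBP4). The C/EBP letters TTGCNNAA stood in 10.46% of promoters and in those of LEP, RBP4 and NAMPT, and the AP-1 letters TGANTCA in 7.71% and in those of RBP4 and CD36. The NF-kB motif, given here by name only, was searched as a pattern that allowed more than 1 letter at some positions. It stood in 14.02% of promoters and in those of RARRES2 and CD36. In RARRES2 it stood after the start and so outside the stretch printed. The E-box CACGTG (7.26% of promoters), the DR1 direct repeat bound by PPAR and RXR (0.31%) and the palindrome of the glucocorticoid receptor (0.39%), the last pair given here by name only, stood in none of these 9 genes' windows. CD36 and RBP4 have several starts in RefSeq, which gives them more windows for a match than the other genes. These matches are descriptions of letters and say nothing about binding.

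In GENCODE 44 (GRCh38), ADIPOQ lies at chr3:186842704-186858463 on the plus strand. Chromosome 7 holds 4 of the genes: LEP (chr7:128241278-128257629) and CD36 (chr7:80369575-80679277) on the plus strand, and RARRES2 (chr7:150338317-150341662) and NAMPT (chr7:106248298-106285966) on the minus strand. CMKLR1 (chr12:108288044-108339317), RBP4 (chr10:93591687-93601744) and APLN (chrX:129645259-129654956) lie on the minus strand, and ANGPTL4 (chr19:8363289-8374370) on the plus strand. The pentamer AUUUA, the core of AU-rich elements in 3′ UTRs that some RNA-binding proteins read, stood in the 3′ UTR of 8 of the 10 genes and in 67.5% of 19524 protein-coding genes. NAMPT held 13 copies in 2785 bases and ADIPOQ 11 in 3759, CMKLR1 held 7, and RARRES2 and ANGPTL4 held none, against a median of 2 over all genes.

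Counts on named genes ranged from 28.4 to 53.8 M per library (M, 1e6 counts), with group medians of 53.5 M in scramble, 40.8 M in scramble with LPS, 38.5 M in KD and 34.8 M in KD with LPS. At this depth 3 counts correspond to 0.0557 to 0.105 CPM (counts per M), the limit at or under which a gene was treated as undetected, and this limit covers counting error only. Levels are given as CPM after scaling of the libraries by the trimmed mean of M values (TMM). The correlation of log2 CPM between libraries of a group was 0.971 to 0.986. The cells carried the adipocyte label to different degrees. The summed level of 11 adipocyte markers was 1274 to 1707 CPM in scramble, 1303 to 1765 in scramble with LPS, 368 to 817 in KD and 267 to 482 in KD with LPS, with replicate 3 the lowest in KD and in KD with LPS. In bulk RNA, fewer adipocytes in a well and less of a transcript per adipocyte cannot be told apart. LPL, which adipocytes normally express, was listed at only 0 to 82 counts in all libraries.

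KD went with lower levels of most of the 10 genes. Without LPS, 7 passed the test (edgeR quasi-likelihood F test, adjusted p under 0.05 over all genes), RARRES2 higher and ADIPOQ, CMKLR1, ANGPTL4, APLN, FABP4 and CD36 lower. This makes 1 of 10 higher and 6 of 10 lower, where 12.1% of the 16217 genes tested were higher and 15.1% were lower. With the additional demand of at least a 2-fold difference, 1 was higher and 5 were lower, where 4.28% and 3.49% of all genes were. With LPS in both arms, 9 passed, RARRES2 higher and 8 lower, where 12.7% of 15981 genes were higher and 14.2% were lower. Of these, 1 was higher and 6 were lower by at least 2-fold, where 4.58% and 3.9% of all genes were. The median log2 fold change of the 10 genes was -1.26 without LPS and -1.73 with LPS, and that of all genes tested was 0.02 and 0.03.

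LPS moved fewer of them. In scramble cells 4 of the 9 genes tested passed, NAMPT higher and CMKLR1, ANGPTL4 and APLN lower, where 5.9% of 15920 genes were higher and 8.38% were lower. In KD cells 4 of 10 passed, NAMPT again higher and CMKLR1, ANGPTL4 and APLN lower, where 5.32% of 16169 genes were higher and 6.03% were lower. Without KD replicate 3, in which adipocyte markers were low, 7 passed in KD cells, with ADIPOQ, FABP4 and CD36 added on the lower side. Without KD with LPS replicate 3, the lowest of its own group in these markers, 3 passed. ADIPOQ, FABP4 and CD36 were then at -0.24, -0.38 and -0.56 and were not called (adjusted p = 0.79, 0.56 and 0.29). With the replicate number as a block, 7 passed in KD cells, ADIPOQ, FABP4 and CD36 again on the lower side. The medians over the 10 genes were -0.33 in scramble, with RARRES2 untested, and -0.68 in KD, against 0.02 and 0.01 over all genes. A test of the difference between the KD effects with and without LPS, the interaction on all 12 libraries, was passed by CMKLR1 alone, where 0.943% of 17173 genes had a more positive KD effect with LPS and 0.332% a more negative one. Each group served in 2 of these comparisons of groups, which are therefore not independent of each other.

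**Figure D1:**
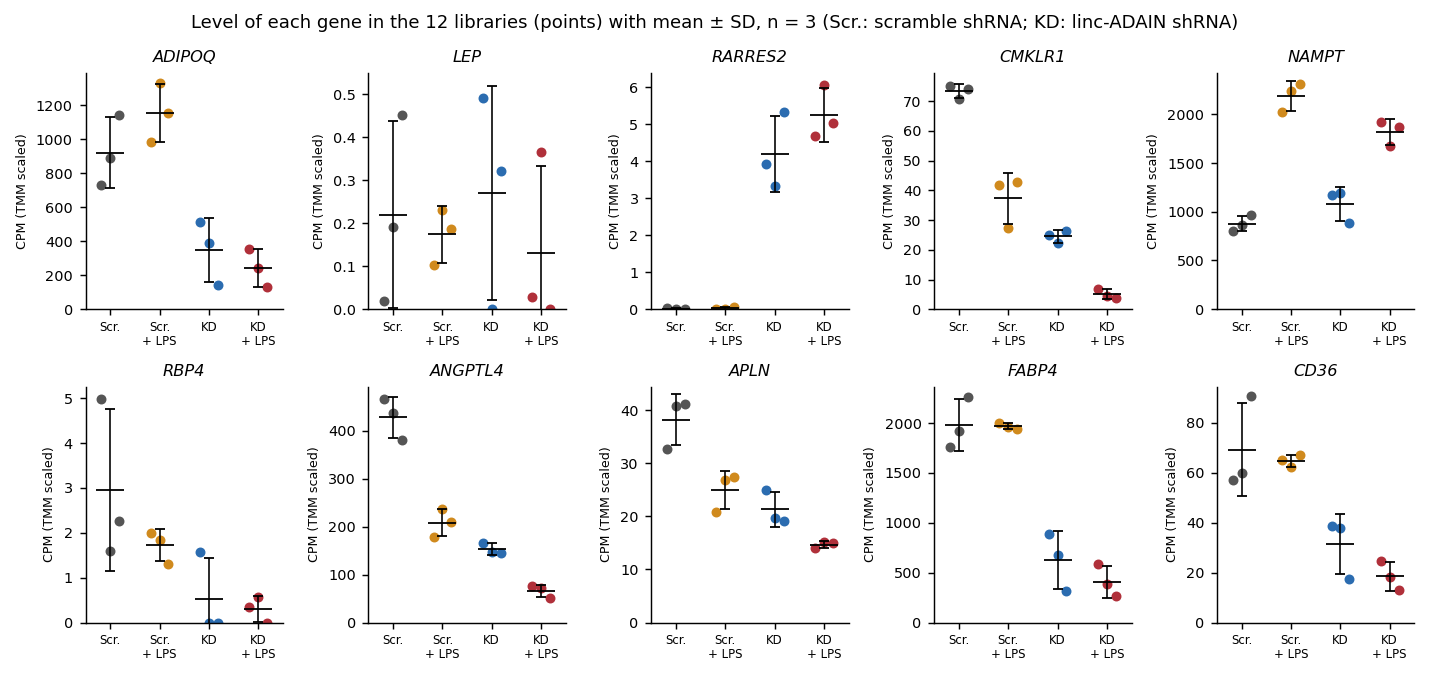
Each panel plots a gene's level in CPM (TMM scaled, linear axis from 0) in the 12 libraries by group (Scr., scramble shRNA; KD, linc-ADAIN shRNA), with points for libraries and bars for the mean ± SD of n = 3, cut at 0. ADIPOQ, CMKLR1, ANGPTL4, APLN, FABP4 and CD36 sat lower in KD, RARRES2 was near 0 in every scramble library, and NAMPT was higher with LPS.

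Compared per length of the transcript, the genes covered a wide span of levels in scramble cells. FABP4 stood at 2174 ± 283 CPM per kb (SD, n = 3), rank 21 of 17035 genes. ANGPTL4 (229 ± 22.9 CPM per kb), ADIPOQ (202 ± 45.7) and NAMPT (201 ± 18.4) came next, with library values that overlapped among the 3 genes. CD36 (15.1 ± 4.02 CPM per kb), CMKLR1 (13.4 ± 0.434) and APLN (11.9 ± 1.49) followed, CD36 overlapping both of the others. RBP4 stood at 2.76 ± 1.68 CPM per kb, and LEP and RARRES2 were close to 0. In KD with LPS the order had changed: FABP4 (451 ± 176 CPM per kb) and NAMPT (417 ± 29.9) overlapped at the top, ADIPOQ (53.0 ± 24.5) and ANGPTL4 (35.4 ± 6.9) overlapped below them, and RARRES2 (7.67 ± 1.06) stood above APLN (4.57 ± 0.181), CD36 (4.04 ± 1.26) and CMKLR1 (0.913 ± 0.316).

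ADIPOQ, which encodes adiponectin, was at 729.5, 887 and 1141 CPM in the scramble libraries and at 514, 392 and 142 in the KD libraries. With LPS, the scramble libraries held 983, 1327 and 1152 CPM and the KD libraries 352, 240.4 and 129. Every KD library lay under every scramble library, and replicate 3 was the lowest in both KD groups. Without LPS the difference was a log2 fold change of -1.39 (SE 0.34, adjusted p = 0.0094), 2.62-fold lower in KD, and with LPS it was -2.26 (SE 0.26, adjusted p = 1.7e-05), 4.79-fold lower. LPS itself gave 0.34 (SE 0.15, adjusted p = 0.17) in scramble cells and -0.54 (SE 0.36, adjusted p = 0.42) in KD cells, with overlapping libraries in both. Without scramble replicate 3 the former was 0.53 (adjusted p = 0.028), and without KD replicate 3 the latter was -0.92 (adjusted p = 0.039). Leaving out KD with LPS replicate 3 instead made the latter -0.24 (adjusted p = 0.79). With the replicate number as a block, the former was 0.35 (adjusted p = 0.0061) and the latter -0.46 (adjusted p = 4.2e-06). The numbers were not taken as pairs in the main fit.

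FABP4, the fatty acid carrier of the adipocyte cytoplasm, lies at chr8:81478419-81483236 on the minus strand. It held 1762, 1916 and 2265 CPM in scramble and 886, 681 and 318 in KD. With LPS it held 2004, 1965 and 1943 CPM in scramble and 582, 387 and 264 in KD. KD libraries did not overlap scramble libraries with or without LPS, whereas the scramble values with LPS fell inside the range of those without it and the KD values with LPS overlapped those without it. The KD difference was -1.65 on the log2 scale (SE 0.27, adjusted p = 7.1e-04) without LPS and -2.26 (SE 0.2, adjusted p = 1.8e-06) with LPS, 3.14-fold and 4.8-fold lower. LPS gave 0.01 (SE 0.09, adjusted p = 0.98) in scramble cells and -0.61 (SE 0.29, adjusted p = 0.24) in KD cells. The latter was -0.94 (adjusted p = 0.012) without KD replicate 3 and -0.38 (adjusted p = 0.56) without KD with LPS replicate 3. It was -0.56 (adjusted p = 6.1e-10) with the replicate number as a block.

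CD36, the fatty acid translocase, was at 57.1, 60.0 and 90.5 CPM in scramble and 38.6, 38 and 17.5 in KD. With LPS, the libraries held 65.2, 62.1 and 66.9 CPM in scramble and 24.6, 18.2 and 13.0 in KD. Again no KD library reached a scramble library, and replicate 3 was the lowest of each KD group. The KD difference was -1.14 (SE 0.26, adjusted p = 0.006) without LPS and -1.8 (SE 0.17, adjusted p = 3.6e-06) with LPS. LPS gave -0.08 (SE 0.15, adjusted p = 0.78) in scramble cells and -0.75 (SE 0.26, adjusted p = 0.082) in KD cells. The latter passed without KD replicate 3 (-1.05, adjusted p = 0.0025) and without KD with LPS replicate 1 (-1.01, adjusted p = 0.03). Without KD with LPS replicate 3 the difference in KD cells was -0.56 (adjusted p = 0.29). With the replicate number as a block it was -0.72 (adjusted p = 6.1e-06).

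These 3 genes moved with the adipocyte markers. Of the 11 markers tested, none of which is among the 10 genes, 8 were lower in KD without LPS and none was higher (median log2 fold change -1.11), and with LPS 9 were lower and none higher (median -1.9). AQP7, a glycerol channel (-1.72 without LPS), and the lipid droplet proteins PLIN4 (-1.61) and CIDEC (-1.43) had the largest differences, and with LPS PLIN4 (-2.45), AQP7 (-2.38) and the glycerol phosphate dehydrogenase GPD1 (-2.33) did. Expressed as a percentage of the summed markers of the same library, CD36 was 4.22 to 5.31% in scramble, 3.52 to 5.0% in scramble with LPS, 4.72 to 6.18% in KD and 4.48 to 5.1% in KD with LPS, all overlapping. ADIPOQ was 57.3 to 66.9% in scramble and 38.6 to 63.7% in KD, and FABP4 was 133 to 138% in scramble and 86.4 to 111% in KD, the latter without overlap (log2 difference -0.42, exact permutation p = 0.1, two-sided, the smallest that 3 against 3 libraries can give). The KD differences of ADIPOQ and FABP4 relative to the markers, -0.21 and -0.42 without LPS, were smaller than those of the levels themselves, -1.39 and -1.65. With LPS they were -0.35 for ADIPOQ, without overlap (48.5 to 73.1% in KD and 75.2 to 77.4% in scramble), and -0.32 for FABP4, with overlap. The part of the markers in these results was not tested further.

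**Figure D2:**
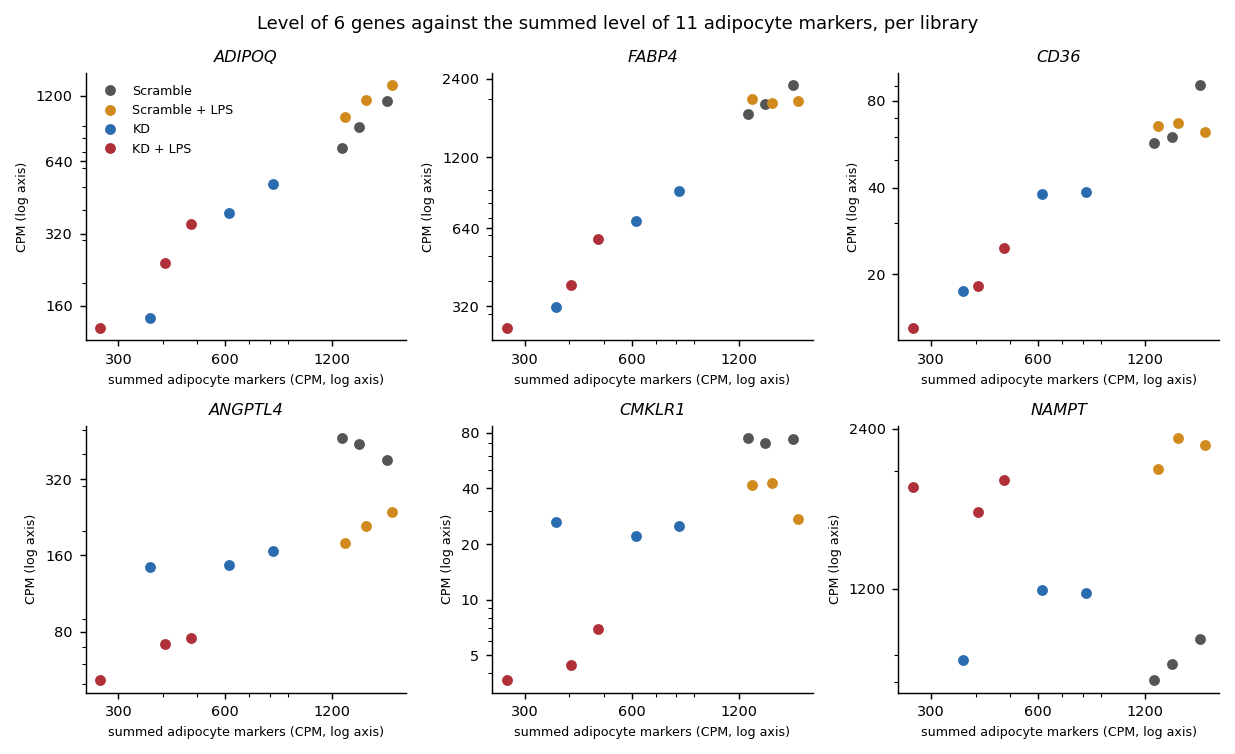
Level of ADIPOQ, FABP4, CD36, ANGPTL4, CMKLR1 and NAMPT in CPM against the summed CPM of 11 adipocyte markers, with 1 point per library, coloured by group, on log axes. ADIPOQ, FABP4 and CD36 were higher where the marker sum was higher, with no slope fitted, whereas ANGPTL4, CMKLR1 and NAMPT at a like marker level differed between libraries with and without LPS.

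ANGPTL4, the lipoprotein lipase inhibitor, was lower both with KD and with LPS. Scramble libraries held 466, 438 and 382 CPM, scramble libraries with LPS 179, 236.5 and 209.7, KD libraries 167, 147 and 145, and KD libraries with LPS 75.5, 71.8 and 51.5. The 4 groups did not overlap each other. KD gave -1.48 (SE 0.09, adjusted p = 4.4e-07) without LPS and -1.65 (SE 0.14, adjusted p = 8.2e-07) with LPS, and LPS gave -1.03 (SE 0.11, adjusted p = 6.7e-05) in scramble and -1.2 (SE 0.12, adjusted p = 9.6e-06) in KD. These 4 differences amounted to 2.8-fold, 3.14-fold, 2.04-fold and 2.31-fold lower levels. The interaction was -0.16 (SE 0.18, adjusted p = 0.83). Relative to the summed adipocyte markers the KD difference without LPS was -0.13 with overlapping libraries and that with LPS was 0.35, in the opposite direction and without overlap, and that of LPS in scramble was -1.09 without overlap (exact permutation p = 0.1, the smallest possible).

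RARRES2, which encodes chemerin, was detected almost only in KD cells. The scramble libraries held 2, 0 and 0 counts and those with LPS 0, 0 and 3, at or under the detection limit in each. The KD libraries held 136, 180 and 216 counts, or 3.92, 3.34 and 5.33 CPM, and those with LPS 165, 282 and 143 counts, or 4.67, 6.07 and 5.03 CPM. Against a level of 3 counts per scramble library, RARRES2 was at least 70.6-fold higher in KD without LPS and at least 64.0-fold higher with LPS (adjusted p = 2.8e-06 and 1.1e-06). LPS in KD cells gave 0.33 (SE 0.24, adjusted p = 0.48) with overlapping libraries. Even in KD cells it was a transcript of modest level, rank 6296 of 17035 genes per length without LPS.

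CMKLR1, the receptor for chemerin, went the other way. It was at 75.2, 70.7 and 74.2 CPM in scramble, 41.7, 27.4 and 42.7 in scramble with LPS, 24.9, 22.2 and 26.4 in KD, and 6.96, 4.41 and 3.66 in KD with LPS. The 4 groups did not overlap, and the lowest group held 104 to 246 counts per library. KD gave -1.58 (SE 0.09, adjusted p = 2.2e-07) without LPS and -2.89 (SE 0.23, adjusted p = 5.5e-07) with LPS, 2.99-fold and 7.44-fold lower. LPS gave -0.96 (SE 0.14, adjusted p = 7.5e-04) in scramble and -2.29 (SE 0.2, adjusted p = 2.8e-06) in KD, 1.95-fold and 4.88-fold lower. The interaction was -1.31 (SE 0.25, adjusted p = 0.014), a KD effect 2.48-fold larger with LPS, and it was -1.22 (adjusted p = 0.053) without KD with LPS replicate 2. Relative to the adipocyte markers the LPS differences were -1.05 in scramble and -1.73 in KD, both without overlap, and the KD differences were -0.23 without LPS, with overlap, and -0.91 with LPS, without overlap (exact permutation p = 0.7 and 0.1).

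APLN, which encodes the vasoactive peptide apelin, changed least among the genes called in all 4 comparisons of groups. Its libraries held 32.7, 40.8 and 41.2 CPM in scramble, 20.9, 26.9 and 27.4 in scramble with LPS, 24.9, 19.7 and 19.2 in KD and 14.1, 15.2 and 14.9 in KD with LPS. KD with LPS lay under all other libraries, and the scramble with LPS and KD groups overlapped. KD gave -0.84 (SE 0.13, adjusted p = 4.5e-04) and -0.77 (SE 0.13, adjusted p = 6.2e-04), and LPS gave -0.6 (SE 0.13, adjusted p = 0.0084) in scramble and -0.53 (SE 0.14, adjusted p = 0.022) in KD. The last call was lost without KD replicate 1 or without any of the 3 KD with LPS libraries (adjusted p from 0.054 to 0.11). As a percentage of the adipocyte markers APLN was higher in KD, 3.05 to 5.21% against 2.42 to 2.87% without LPS, without overlap. With LPS the log2 difference of this ratio was 1.26, also without overlap. For LPS the ratio differed by -0.66 in scramble, without overlap, and by 0.09 in KD, with overlap.

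NAMPT, the rate-limiting enzyme of NAD salvage that is also secreted as visfatin, was higher with LPS in both arms. Scramble libraries held 806, 864 and 965 CPM without LPS and 2018, 2242 and 2311 with it, and KD libraries held 1175, 1192 and 882 without LPS and 1922, 1673 and 1865 with it. The LPS groups lay above the untreated ones in both arms. LPS gave 1.33 (SE 0.09, adjusted p = 2.4e-06), 2.52-fold, in scramble and 0.75 (SE 0.1, adjusted p = 1.3e-04), 1.68-fold, in KD, with an interaction of -0.57 (SE 0.15, adjusted p = 0.068). KD gave 0.31 (SE 0.11, adjusted p = 0.067) without LPS, with overlapping libraries, and -0.27 (SE 0.07, adjusted p = 0.016) with LPS, without overlap. These small differences depended on single libraries: the former passed without KD replicate 3 (0.44, adjusted p = 0.0055), as did the interaction (-0.72, adjusted p = 0.0062), and the latter did not pass without scramble with LPS replicate 3 (-0.23) or without KD with LPS replicate 2 (-0.22, adjusted p = 0.074 in both). Scaling by library size alone gave 0.41 (adjusted p = 0.017) and -0.19 (adjusted p = 0.08) for them. A fit on all 12 libraries gave 0.3 (adjusted p = 0.037) and -0.27 (adjusted p = 0.064). Relative to the summed adipocyte markers, which were lower in KD, the KD differences were 1.65 without LPS and 1.75 with LPS. Those of LPS were 1.27 in scramble and 1.37 in KD, and none of these ratios overlapped. The near-identical copy NAMPTP1 took counts equal to 2.92 to 4.33% of those of NAMPT and had like differences with LPS, 1.23 in scramble and 0.75 in KD. Reads shared between both loci leave the count of NAMPT uncertain, and how many NAMPTP1 reads were counted to NAMPT was not measured.

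RBP4, the plasma carrier of retinol, had few counts, and in KD some libraries had none. It held 263, 84 and 105 counts in scramble, 78, 56 and 56 in scramble with LPS, 55, 0 and 0 in KD and 12, 26 and 0 in KD with LPS. KD libraries lay under scramble libraries in both comparisons, with a difference of -2.55 (SE 1.15, adjusted p = 0.13) without LPS and -2.46 (SE 0.81, adjusted p = 0.039) with LPS. Without LPS they were barely apart, KD replicate 1 at 1.58 CPM and scramble replicate 2 at 1.6 CPM. The call with LPS was lost without any 1 of the 3 scramble with LPS libraries or without KD with LPS replicate 1 (adjusted p from 0.07 to 0.098). Without KD replicate 1, whose 55 counts were the only ones in its group, the fit without LPS gave adjusted p = 1.8e-04. LEP held 0 to 21 counts in every library, at most 0.49 CPM, and no difference in leptin transcript was detectable at this depth.

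**Figure D3:**
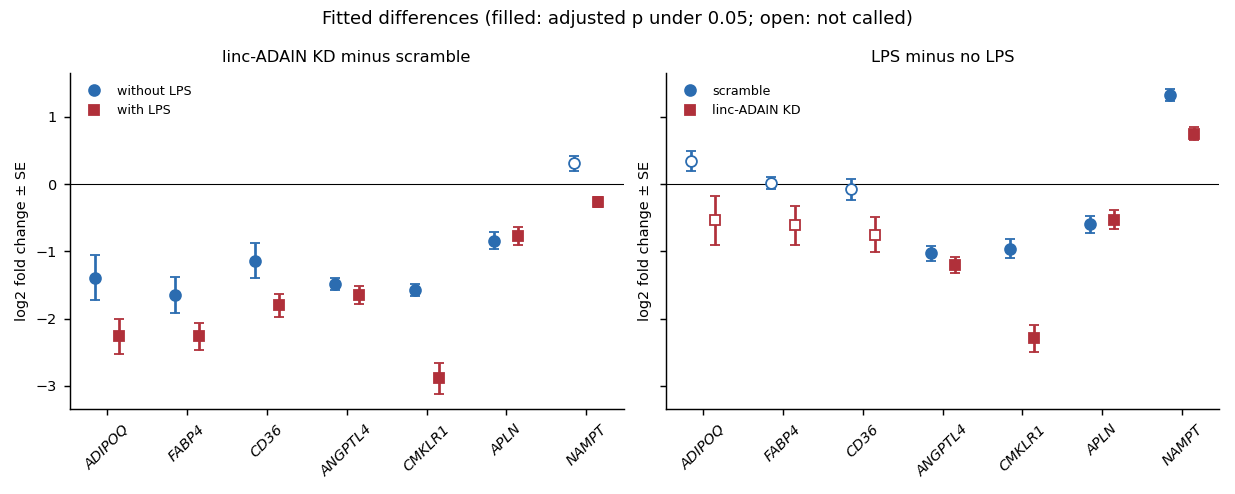
Fitted log2 fold changes ± SE of the 7 genes with ample counts, for KD minus scramble on the left (circles without LPS, squares with LPS) and for LPS minus no LPS on the right (circles in scramble, squares in KD), filled where adjusted p was under 0.05. CMKLR1 fell furthest with KD under LPS (-2.89), and NAMPT was the only gene of those plotted above 0 with LPS in both arms.

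The genes that surround these adipokines in their pathways moved unevenly. Over all genes tested, 12.1% were higher and 15.1% lower in KD without LPS, and 12.7% and 14.2% with LPS. Of the adipokine receptors tested, 1 of 7 was higher and none lower in each KD comparison, in both cases the adiponectin receptor ADIPOR1 (0.23 without LPS, adjusted p = 0.034, and 0.53 with LPS, adjusted p = 2.9e-04), named after its values were seen, a share near that of all genes. Among other adipokines, 2 of 15 were higher and 5 were lower without LPS, and 2 of 16 were higher and 4 lower with LPS, the shares higher being near those of all genes. Adipsin (CFD), a complement protease made by fat cells, fell from 824 ± 55.1 to 50.5 ± 17.6 CPM (-4.03, SE 0.2, adjusted p = 9.8e-08, 16.3-fold lower), further than any of the 10 genes. The adiponectin paralog C1QTNF1 (-2.35) and the matrix protein OMD (-1.7) fell as well.

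In fatty acid uptake and binding, 12 of 20 genes were lower in KD without LPS and 1 was higher (median log2 fold change -0.33, all genes 0.02), and with LPS 9 of 19 were lower and none higher. The acyl-CoA synthetase ACSL5 (-2.27), the caveolar genes CAVIN2 (-2.22) and CAV1 (-1.32, from 2089 ± 109 to 835 ± 47.3 CPM) and, with LPS, the epidermal fatty acid binding protein FABP5 (-2.03) led these. In the lipoprotein lipase system, where ANGPTL4 acts, 2 of 14 were higher, again near the share of all genes, and 4 lower without LPS, and none of 13 was higher and 4 were lower with LPS. The lipoprotein receptor VLDLR was 3.75-fold higher (1.91, SE 0.42, adjusted p = 0.0055) at a low level of 0.965 against 3.63 CPM. The genes of NAD synthesis and use beside NAMPT were nearly all uncalled, with 1 of 16 called in each comparison of groups, named after the values were seen. The deacetylase SIRT1 was lower in KD without LPS (-0.34), and the polymerase PARP1 was lower in KD than in scramble with LPS (-0.27). The nicotinamide methyltransferase NNMT was higher with LPS in scramble (0.56) and in KD (0.51).

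Of the genes of retinoid binding and metabolism, 5 of 12 were lower and 1 was higher in KD without LPS, and 5 of 15 were lower with LPS. The retinoic acid hydroxylase CYP26B1 fell from 31.4 ± 8.37 to 3.04 ± 0.159 CPM with KD (-3.36, SE 0.19, adjusted p = 2.1e-07) and also fell with LPS in scramble (-2.05) and in KD (-2.45). RARRES1 (-2.63) and the retinaldehyde dehydrogenase ALDH1A3 (-2.39) were lower in KD. RARRES1 and RARRES2, both named for induction by retinoids, thus moved in opposite directions.

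**Figure D4:**
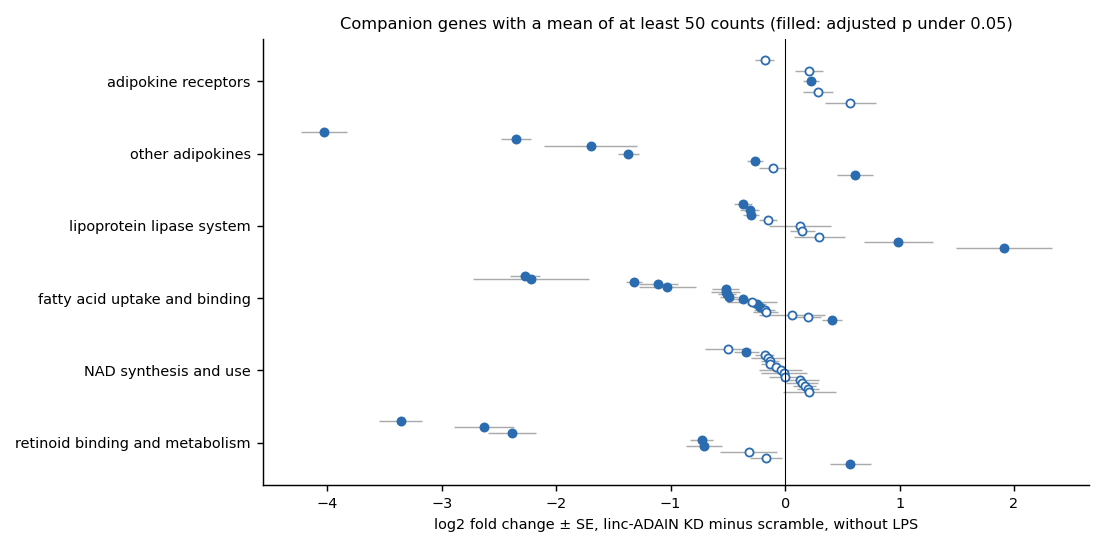
Log2 fold change ± SE of KD minus scramble without LPS for those genes of 6 companion lists that averaged 50 counts or more, 1 point per gene, filled where adjusted p was under 0.05. The fatty acid list holds the most lower calls (12 of 20 genes tested), and the genes of NAD synthesis and use cluster around 0.

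Markers of other cells were compared in the same way. The stromal and preadipocyte markers went both ways, 4 higher and 3 lower of 10 tested in each KD comparison, with THY1 (-2.37) and ENG (-1.36) lower and DPP4 (2.07) higher without LPS. Their summed level overlapped between KD (17630 to 24252 CPM) and scramble (20899 to 22788 CPM), with replicate 3 the highest of both KD groups. FN1 made up most of this sum, at 17759.5 CPM on average in scramble and 16484.1 CPM in KD. The sum therefore says little about the other markers. The summed macrophage markers were 58.3 to 61.9 CPM in scramble and 89.9 to 119.8 CPM in KD, through CD163 (3.99, from 4.33 ± 1.12 to 68.6 ± 13.7 CPM). CD68 was lower in KD than in scramble, 31.1 against 53.6 CPM without LPS and 25.4 against 60.1 CPM with LPS (-1.25). The pan-leukocyte gene PTPRC held 0 to 12 counts, and TYROBP and AIF1 were at 0 in all libraries. The summed endothelial markers were 24.5 to 28.1 CPM in scramble and 12.9 to 13.4 CPM in KD, with VWF (-2.12) and TEK (-1.79) lower. With LPS in both arms, KDR was higher in KD than in scramble (4.89), and CLDN5 and PLVAP were at 0 throughout. CD36, FABP4 and CMKLR1 are also expressed by macrophages or endothelial cells, and the part of these markers in their differences was not tested.

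Among 11811 genes averaging 50 counts or more over the 12 libraries, the genes nearest to a given gene were found by the root mean square difference (RMS) of log2 CPM after centring. ADIPOQ was nearest to ACACB (acetyl-CoA carboxylase beta, RMS 0.1), GPD1 (0.15) and PRKAR2B (0.17), and FABP4 to PLIN4 (0.15), HP (0.19) and ACACB (0.19). CD36 was nearest to FABP5 (0.14), GPD1L (0.21) and SCD (0.22). ANGPTL4 and CMKLR1 kept other company: the former was nearest to CHST3 (0.24), SHISAL1 (0.25) and ABLIM3 (0.26), and the latter to PAQR5 (0.4), FLNC (0.4) and SCUBE3 (0.41). RARRES2 was nearest to GJB2 (0.47), EYA4 (0.48) and MCF2 (0.5), each of which was at 0.102 CPM or less on average in the scramble groups and at 3.76 CPM or more in the KD groups. RBP4, with few counts, had no near neighbour, the first being THRSP at 1.01. The points of such a comparison share the libraries and their depth, and a small RMS describes likeness over 12 libraries in 4 groups.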

How the data were processed

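Polyadenylated RNA in 12 libraries of adipocytes was sequenced with a stranded kit. The authors pseudoaligned the reads to GRCh38 transcripts with kallisto 0.44.0 and deposited estimated counts per gene name, which are whole numbers and carry no correction for depth or length. The annotation release of the index is not given in the sources used here. A row without a gene name held 0.235 to 0.306% of a library's counts and was left out.

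Counts were analysed in R 4.3.3 with edgeR 4.0.16: a minimum of 10 counts summed over the libraries fitted, TMM scaling, the quasi-likelihood F test and Benjamini-Hochberg adjustment over all genes tested. A gene was called at an adjusted p under 0.05. The standard error is the log2 fold change divided by the square root of F. The 4 comparisons used 6 libraries each, and the interaction used 12. The fits were tested on simulated data. Promoters came from RefSeq and positions, transcript lengths and 3′ UTRs from GENCODE 44, and CPM per kb used the length of the canonical transcript. DESeq2 1.42.0, other scalings and filters, a fit on all libraries, a replicate block and leaving out each library were alternatives.

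The 10 genes, the companion lists and the markers were chosen with earlier results of these data known. From each list, up to 3 genes per comparison were named, those with the largest fold among genes called, at least 2-fold different and with a mean of at least 50 counts, and further names are given as such. A gene that this rule would name is not reported here. Of the 12 adipocyte markers chosen, 11 had a row. The paper's legends describe this sequencing as a single experiment in triplicate, so p-values measure only the spread between these libraries. No 2 libraries of a group agreed within sampling noise (chi-square per degree of freedom 19.1 to 50.7), and each was counted as 1 sample.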

Additional observations from a re-analysis of the deposited data

Results flagged for a closer look

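In the main fit, CMKLR1 was the only one of the 10 genes whose KD effect differed between libraries with and without LPS by the test of that difference itself. The call was lost without KD with LPS replicate 2. NAMPT passed this test too with DESeq2 (adjusted p = 0.0073) and with no filter on low counts (edgeR adjusted p = 0.0083). The KD difference of CMKLR1 was -1.58 on the log2 scale without LPS and -2.89 with LPS, and the interaction was -1.31 (SE 0.25, edgeR adjusted p = 0.014). All 3 KD libraries with LPS (3.66 to 6.96 CPM) lay under every other library. Groups of 3 libraries were not tested for single outlying libraries.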

How the results depend on the processing

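The number of the 10 genes called stayed within 1.5 times the value given under every alternative run for both KD comparisons and for LPS in scramble. For LPS in KD, 4 were called, 7 with the replicate number as a block and 3 to 7 with each library left out. For the interaction 1 was called, 2 with DESeq2, 2 with no filter on low counts, and 0 to 2 with each library left out. Of 49 gene and comparison pairs, 28 kept their direction and their side of the threshold under all alternatives, 4 only lost a call, 7 only gained 1, and 10 changed sign under at least 1. The sign changes concerned values that were not called: LEP in KD without LPS (-0.2 with the block, -0.48 to 1.33 with a library left out), LEP in KD with LPS (-3.25 to 0.2), LEP with LPS in scramble (0.22 with the block, -0.86 to 0.72), FABP4 with LPS in scramble (-0.03 with scaling by library size alone, -0.01 with all 12 libraries, -0.07 to 0.11), CD36 with LPS in scramble (-0.2 to 0.16), RBP4 with LPS in KD (1.09 with the block, -1.58 to 6.64), and the interactions of RBP4 (-0.04 with DESeq2, -0.7 to 7.54), APLN (-0.03 to 0.21), RARRES2 (-2.95 to 2.76) and LEP (-3.56 to 0.13). The causes were not tested. Scaling by library size alone moved the median of all genes from 0.024 to 0.129 in KD without LPS and from 0.025 to 0.109 with LPS. It raised the share of higher calls from 44.5% to 61.4% and from 47.2% to 59.2%, and lowered it from 46.9% to 35.2% for LPS in KD. Same-numbered libraries deviated together only weakly (correlations of -0.1 to 0.25 over the 4 comparisons, and not every library correlated best with its own number), so the numbers were not taken as pairs. With the block, ADIPOQ, FABP4 and CD36 were called lower with LPS in KD (-0.46, -0.56 and -0.72), and ADIPOQ higher with LPS in scramble (0.35). RBP4 in KD without LPS was called with the block (-4.12) and with no filter (-2.55), and RBP4 in KD with LPS was not called with all 12 libraries (adjusted p = 0.14). NAMPT passed in KD without LPS with DESeq2 (adjusted p = 0.02), no filter (0.027) and all 12 libraries (0.037), and in the interaction with DESeq2 (0.0073) and no filter (0.0083). NAMPT in KD with LPS was not called with scaling by library size alone (adjusted p = 0.08) or with all 12 libraries (0.064). Depth limits LEP, RBP4 and RARRES2, which held few or no counts in some groups.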
